A study of Mus musculus with 36 samples.

Results

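The 55 protein-coding genes that encode the chains of collagens and laminins, the main structural proteins of the extracellular matrix, were followed in mouse epiblast stem cells (EpiSCs) and in cells derived from them by BMP4-induced primed to naïve transition (BiPNT). They were chosen by symbol, as Col, a number, a and a number, or as Lama, Lamb or Lamc and a number, and all 55 were among the 50600 genes listed for the sorted Day 3 cells and the 29267 genes listed for the other libraries. Of the 55, 20 belong to the basement membrane (6 collagen IV chains, 11 laminin chains, *Col7a1*, *Col15a1* and *Col18a1*), 11 are fibrillar collagens and 24 are other collagens.

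RNA-seq gave 11 libraries. EpiSCs (3 libraries) carry no induction and were kept in N2B27 medium with Activin A, bFGF and the tankyrase inhibitor XAV939. Day 3 c-Kit+ and c-Kit- cells (2 libraries each) came from EpiSCs given Stage 1 medium for 3 days and were sorted on the surface receptor c-Kit. Stage 1 medium holds Vitamin C, bFGF, LiCl, LIF, the GSK3 inhibitor CHIR99021, BMP4, the EZH2 inhibitor EPZ6438 and a DOT1L inhibitor, and both sorted populations received it. Day 6 BV+SC+ cells (2 libraries) were sorted for mVenus and ECFP reporters of *Prdm1* (*Blimp1*) and *Dppa3* (*Stella*) from a transgenic EpiSC line. Protocol text that both libraries share gives them 3 days in a medium of Vitamin C, bFGF, LiCl, LIF and CHIR99021 to which BMP4, EPZ5676 (a DOT1L inhibitor) and EPZ6438 were added, then 3 days in N2B27 with 2i and Vitamin C, but the descriptions of the libraries also read 2iJi (the first) and GK15 (the second). GK15 is the name of another second-stage medium that was tried for germ cell induction. The paper also added a JAK inhibitor at the second stage in another experiment, and the descriptions do not say whether 2iJi refers to it. The pair may therefore differ in medium, and medium and library cannot be told apart. Cells of Day 3 of BiPNT with and without the DOT1L inhibitor SGC0946 gave 1 library each. The paper describes the pair as with or without DOT1L inhibitor treatment, so by that account the cells without SGC0946 had no DOT1L inhibitor. The rest of Stage 1 medium (Vitamin C, bFGF, LiCl, LIF, CHIR99021, BMP4 and EPZ6438) is taken as common to both. What else their medium held was read only from the protocol text that they share with the other libraries. EpiSC lines came from E5.5 embryos or from reporter ESCs, and the labels do not say which line gave which library or whether replicates were separate cultures, so p-values measure the spread between these libraries.

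Basement membranes are thin sheets on which epithelia rest. A laminin molecule joins an alpha, a beta and a gamma chain and polymerises at the cell surface, where integrins and dystroglycan hold it, and a network of collagen IV is laid on it and linked to it by nidogens and perlecan. Collagen IV molecules are built mainly from the chains of *Col4a1* and *Col4a2*, while the chains of *Col4a5* and *Col4a6* are found in the basement membranes of fewer tissues. Fibrillar collagens, such as type I (*Col1a1* and *Col1a2*) and type III (*Col3a1*), instead form the fibres of connective tissue and are typical products of mesenchymal cells. In the early mouse embryo, laminin lies beneath the epiblast and is needed for its polarity, and the parietal endoderm and trophoblast add the thick membrane that surrounds the embryo.

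Libraries of the sorted cells had 1726038 to 1841442 expected counts, those of EpiSCs 2444211 to 3070115, those with and without SGC0946 4776143 and 4577685, and those of BV+SC+ cells 14778809 and 18099059, so a chain with few counts was measured least precisely in the sorted cells. The sort labels held. *Kit* was at 99.6 and 96.02 TPM (a level corrected for gene length and library size) among c-Kit+ cells. Among c-Kit- cells it was at 4.81 and 3.24 TPM. *Dppa3* was at 1162 and 1202 TPM in BV+SC+ cells and at 0 in EpiSCs.

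Of the 55 chains, 43 passed 1 TPM in at least 1 library and 12 never did (*Col4a3*, *Col4a4*, *Col6a4*, *Col6a6*, *Col8a1*, *Col10a1*, *Col17a1*, *Col19a1*, *Col25a1*, *Col28a1*, *Lama2* and *Lamc3*). *Col4a3* had no count in any library. In EpiSCs, 20 to 21 chains passed 1 TPM and 8 to 9 passed 10 TPM. The highest were the chains of a single laminin type. *Lama5* was at 206.3, 199.9 and 211.4 TPM, *Lamc1* at 149.0, 195.8 and 155.6 TPM, and *Lamb1* at 79.2, 81.7 and 73.4 TPM. Beside them, *Col18a1*, the precursor of endostatin, was at 99.9, 105.8 and 110.2 TPM. EpiSC RNA for matrix chains was thus mostly RNA for the basement membrane, which held 91.8% to 92.3% of the summed TPM of the 55 genes. That share was 87.4% and 84.8% among c-Kit+ cells and 72.0% and 74.0% among c-Kit- cells. It was 66.9% and 64.4% at Day 3 without and with SGC0946, and 87.3% and 88.8% in BV+SC+ cells. The summed TPM of all 55 genes was 644.1 to 697.6 in EpiSCs, 707.9 and 633.5 among c-Kit+ cells and 1251 and 1054 among c-Kit- cells. It was 1378 and 1303 at Day 3 without and with SGC0946, and lowest in BV+SC+ cells (mean 473.5). Levels of the sorted cells come from files with another list of genes than the rest and from another library kit, and are set beside them as description.

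**Figure D1:**
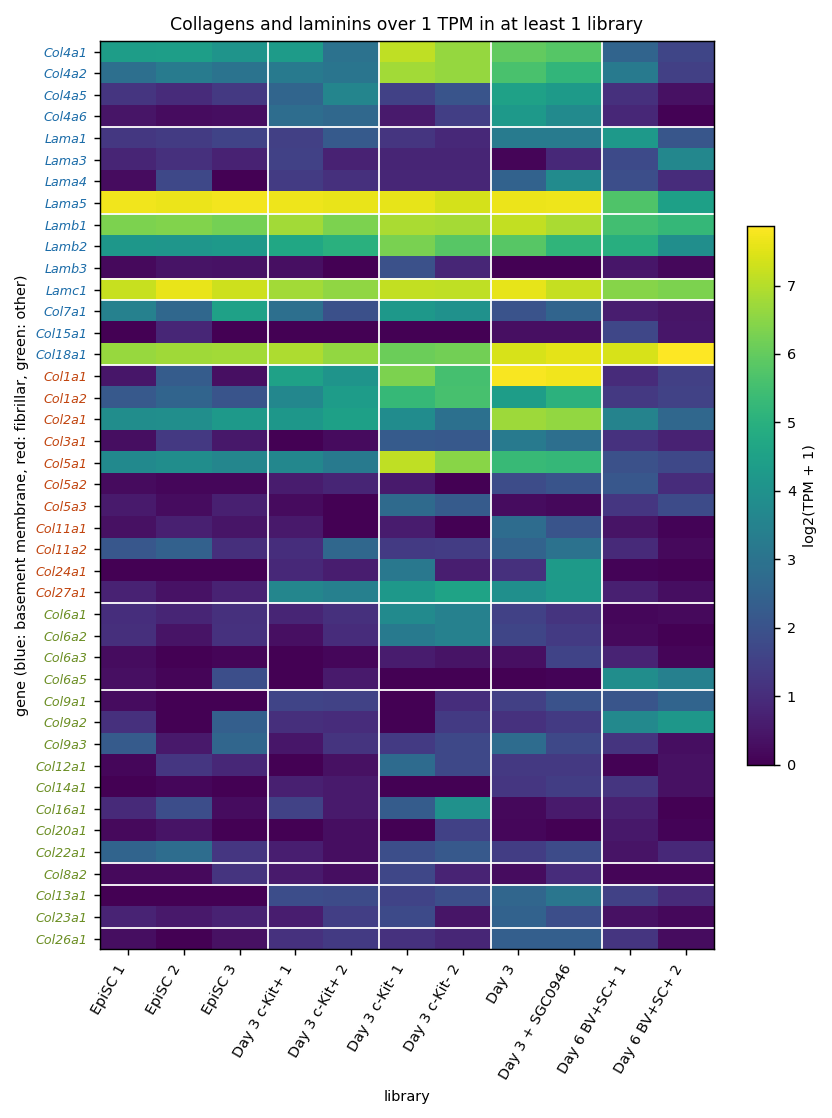
Level of 42 of the 43 collagen and laminin genes that passed 1 TPM in at least 1 library, as log2(TPM + 1) on a colour scale, with a row per gene (white lines part the classes) and a column per library. *Lama5*, *Lamc1*, *Lamb1* and *Col18a1* are bright in EpiSCs and at Day 3, and *Col4a1*, *Col4a2* and *Col5a1* are brightest in c-Kit- cells. *Col1a1* is brightest at Day 3 with and without SGC0946, and *Lama5* is dimmer in BV+SC+ cells (50.7 and 21.05 TPM).

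The collagen IV genes lie head to head in pairs. *Col4a1* and *Col4a2* lie on opposite strands of chromosome 8 with start sites 21 bases apart, and *Col4a5* and *Col4a6* lie on opposite strands of chromosome X with start sites 1309 bases apart (GRCm38). The promoter windows of these 4 genes are shown because the pairs went opposite ways in the c-Kit sort. Each runs from 250 bases before to 50 bases after the start, 5′ to 3′ on the strand of its gene, from RefSeq on GRCm38.p6: *Col4a1* at chr8:11312777-11313076 (minus strand), *Col4a2* at chr8:11312555-11312854 (plus strand), *Col4a5* at chrX:141475169-141475468 (plus strand) and *Col4a6* at chrX:141474027-141474326 (minus strand). Capitals mark GC boxes (GGGCGG) and CCAAT boxes (CCAAT) on either strand.
Col4a1: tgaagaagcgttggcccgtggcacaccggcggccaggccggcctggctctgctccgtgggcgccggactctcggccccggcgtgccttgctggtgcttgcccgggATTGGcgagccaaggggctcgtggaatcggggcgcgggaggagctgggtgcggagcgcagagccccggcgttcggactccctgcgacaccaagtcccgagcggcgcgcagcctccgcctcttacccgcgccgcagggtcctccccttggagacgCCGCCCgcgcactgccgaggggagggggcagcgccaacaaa
Col4a2: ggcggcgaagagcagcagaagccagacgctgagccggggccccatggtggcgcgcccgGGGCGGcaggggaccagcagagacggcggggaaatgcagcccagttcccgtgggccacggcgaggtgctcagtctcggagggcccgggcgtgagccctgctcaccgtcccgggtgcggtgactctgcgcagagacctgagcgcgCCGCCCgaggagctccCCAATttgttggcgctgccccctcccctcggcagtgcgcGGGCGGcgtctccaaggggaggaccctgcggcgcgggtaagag
Col4a5: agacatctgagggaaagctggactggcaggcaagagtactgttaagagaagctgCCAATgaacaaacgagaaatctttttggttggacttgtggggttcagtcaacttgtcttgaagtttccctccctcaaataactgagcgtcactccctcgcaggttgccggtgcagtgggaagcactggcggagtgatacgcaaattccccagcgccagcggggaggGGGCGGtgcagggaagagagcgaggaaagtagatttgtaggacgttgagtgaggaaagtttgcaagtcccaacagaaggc
Col4a6: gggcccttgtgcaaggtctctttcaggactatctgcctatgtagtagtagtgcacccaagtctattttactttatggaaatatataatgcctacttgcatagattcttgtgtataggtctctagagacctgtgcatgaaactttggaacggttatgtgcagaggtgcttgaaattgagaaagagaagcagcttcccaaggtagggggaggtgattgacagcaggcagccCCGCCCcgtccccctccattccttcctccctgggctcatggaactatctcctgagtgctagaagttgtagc

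The windows of *Col4a1* and *Col4a2* share 78 bases and are rich in G and C (74.0% and 73.7%), against 52.7% in *Col4a5* and 48.3% in *Col4a6*. A GC box was found once in the windows of *Col4a1*, *Col4a5* and *Col4a6* and 3 times in that of *Col4a2*. A CCAAT box was found once each in the windows of *Col4a1*, *Col4a2* and *Col4a5*. Of the 44 windows available for 40 of the 55 genes, 59.1% held a GC box and 31.8% a CCAAT box, against 35.7% and 37.4% of all 32851 windows. The 7-letter AP-1 site (TGACTCA), the E-box (CACGTG) and the TATA box (TATAAA) were in 2.27%, 0.00% and 11.4% of the windows of the 55 genes and in 5.20%, 7.15% and 13.6% of all windows. A match is a match of letters only.

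The c-Kit sort asks how the cells on the way to the naïve state differ from those beside them after 3 days. The common collagen IV pair, *Col4a1* and *Col4a2*, was lower in c-Kit+ than in c-Kit- cells, while the rarer pair, *Col4a5* and *Col4a6*, was higher. Of the fibrillar collagens, 4 of 6 tested were lower, *Col5a1* among them, and 1 was higher. Both beaded filament collagens that were tested were lower. *Lama5*, *Lamb1* and *Lamc1*, the laminin chains of highest level, differed by less than 2-fold. These are differences between 2 populations of the same day, not changes from EpiSCs. As description, mean TPM in EpiSCs, c-Kit+ and c-Kit- cells was 18.75, 12.84 and 119.1 for *Col4a1*. For *Col1a1* it was 1.51, 18.77 and 62.94. Of the 55 genes, 21 had enough counts to be tested and 16 were called (4 higher and 12 lower in c-Kit+ cells) by edgeR's quasi-likelihood test at a Benjamini-Hochberg adjusted p under 0.05 and a fold over 2, where 22.9% of the 11018 genes tested were called (9.98% higher and 12.9% lower). By class, 5 of 12 tested basement membrane genes were lower and 3 higher, 4 of 6 fibrillar genes were lower and 1 higher, and all 3 other collagens tested were lower. The median log2 fold change of the 21 genes was -1.37, and that of all genes tested was 0.03.

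*Col4a1* was at 139.6 and 98.6 TPM among c-Kit- cells against 18.9 and 6.82 TPM among c-Kit+ cells (log2 fold change -3.44, SE 0.24, adjusted p = 8.06e-06). *Col4a2* was at 108.7 and 98.98 TPM among c-Kit- cells against 8.33 and 7.40 TPM among c-Kit+ cells (log2 fold change -3.82, SE 0.18, adjusted p = 1.03e-06). For both genes every c-Kit- library stood above every c-Kit+ library, a separation in one direction or the other that 73.1% of all genes tested had. *Col4a5* was at 1.85 and 3.14 TPM among c-Kit- cells against 4.91 and 10.95 TPM among c-Kit+ cells (log2 fold change 2.13, SE 0.45, adjusted p = 0.00457), and was no longer called without the second c-Kit+ library (log2 fold change 1.48). *Col4a6* was at 0.47 and 1.75 TPM among c-Kit- cells against 6.07 and 5.34 TPM among c-Kit+ cells (log2 fold change 2.38, SE 0.50, adjusted p = 0.00467). The c-Kit+ libraries were above both c-Kit- libraries for *Col4a5* and for *Col4a6*. *Col4a5* and *Col4a6* held 12.9% and 15.9% of collagen IV TPM in the first c-Kit+ library and 35.9% and 17.5% in the second, against at most 1.55% and 0.864% in c-Kit- cells. The summed collagen IV level was 250.6 and 202.5 TPM among c-Kit- cells, 38.2 and 30.5 TPM among c-Kit+ cells and 24.8 to 30.4 TPM in EpiSCs. Of the other collagen IV chains, *Col4a4* and *Col4a3* could not be tested.

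**Figure D2:**
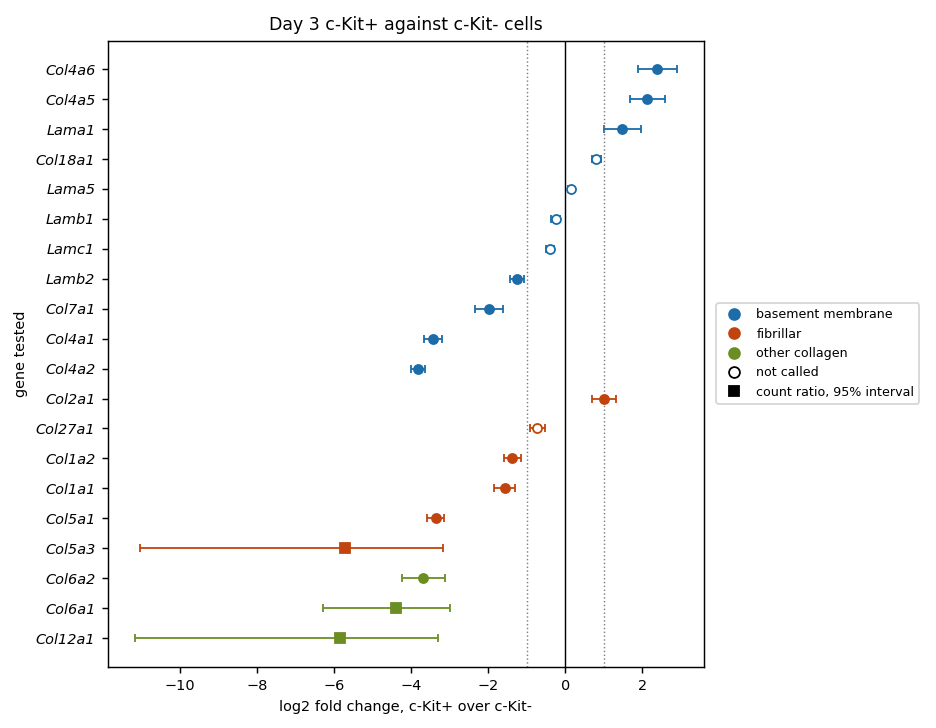
Log2 fold change of 20 of the 21 tested genes, c-Kit+ over c-Kit- cells (2 libraries each), with bars of 1 SE for circles. Squares are genes for which neither c-Kit+ library held more than 3 counts, drawn as the ratio of summed counts with its 95% counting interval, open circles were not called and dotted lines mark a 2-fold change. *Col4a6* and *Col4a5* lie to the right at 2.38 and 2.13, while *Col4a1* and *Col4a2* lie to the left at -3.44 and -3.82.

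Laminin alpha chains carry most of the receptor-binding sites of the molecule. *Lama5*, the alpha chain of highest level, was at 190.7 and 162.7 TPM among c-Kit- cells against 201.9 and 196.7 TPM among c-Kit+ cells, and its log2 fold change of 0.15 (SE 0.08, adjusted p = 0.160) did not pass. With an offset for GC content it was 0.49 (adjusted p = 0.000191), still under 2-fold. *Lama1*, an alpha chain of the earliest embryonic basement membranes, was at 1.31 and 0.88 TPM among c-Kit- cells against 1.84 and 3.72 TPM among c-Kit+ cells (log2 fold change 1.48, SE 0.49, adjusted p = 0.0365). That call rested on little: it was lost in DESeq2 (adjusted p = 0.141) and with offsets for effective length (adjusted p = 0.0575). It was also lost without the second c-Kit+ library (log2 fold change 0.84) or the second c-Kit- library (1.20). *Lama2*, *Lama3* and *Lama4* were not tested, and *Lama5* held 97.3% to 98.5% of alpha chain TPM in all 4 sorted libraries.

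Among the partner chains, *Lamb1* was at 116.3 and 112.0 TPM among c-Kit- cells against 108.4 and 78.5 TPM among c-Kit+ cells (log2 fold change -0.26, SE 0.11, adjusted p = 0.0958). *Lamc1* was at 140.6 and 137.0 TPM among c-Kit- cells against 108.2 and 94.3 TPM among c-Kit+ cells (log2 fold change -0.40, SE 0.10, adjusted p = 0.00923), which is under 2-fold. Neither chain of the abundant laminin was called. The less common partner *Lamb2* was called, and was at 77.9 and 55.5 TPM among c-Kit- cells against 25.06 and 31.1 TPM among c-Kit+ cells (log2 fold change -1.25, SE 0.18, adjusted p = 0.000556), which an offset for GC content took below 2-fold (-0.84). *Lama3* and *Lamb3*, partners in the laminin that anchors epithelia, stayed under 3 TPM in all sorted libraries.

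Among the collagens of the basement membrane zone, *Col7a1*, the collagen of anchoring fibrils, was at 17.3 and 14.8 TPM among c-Kit- cells against 6.37 and 2.83 TPM among c-Kit+ cells (log2 fold change -1.99, SE 0.36, adjusted p = 0.00193). *Col18a1* was at 67.6 and 72.8 TPM among c-Kit- cells against 119.9 and 95.2 TPM among c-Kit+ cells. Its log2 fold change of 0.81 (SE 0.12, adjusted p = 0.000804) was under 2-fold, and with an offset for GC content it was 1.23, past it.

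The fibrillar collagens that were called were lower in c-Kit+ cells with 1 exception. *Col5a1*, whose chain helps to start collagen fibrils, was at 138.8 and 88.01 TPM among c-Kit- cells against 11.4 and 8.55 TPM among c-Kit+ cells (log2 fold change -3.37, SE 0.22, adjusted p = 6.23e-06). *Col1a1* was at 79.5 and 46.4 TPM among c-Kit- cells against 21.8 and 15.7 TPM among c-Kit+ cells (log2 fold change -1.58, SE 0.26, adjusted p = 0.00122). *Col1a2*, its partner in type I collagen, was at 38.1 and 47.3 TPM among c-Kit- cells against 11.6 and 19.3 TPM among c-Kit+ cells (log2 fold change -1.37, SE 0.22, adjusted p = 0.000990). No c-Kit+ library reached a c-Kit- library for any of these genes. *Col5a3* had 33 and 22 counts among c-Kit- cells against 1 and 0 among c-Kit+ cells, a ratio of 52.6 (95% interval 9.06 to 2120, counting error only; adjusted p = 0.000627). *Col3a1* had 20 and 7 counts among c-Kit- cells against 0 and 1 among c-Kit+ cells and was not tested. The exception was *Col2a1*, the collagen of cartilage and of some embryonic epithelia, at 13.3 and 6.55 TPM among c-Kit- cells against 17.07 and 21.4 TPM among c-Kit+ cells (log2 fold change 1.00, SE 0.30, adjusted p = 0.0248), a change that sat on the 2-fold limit and was not called by DESeq2 (adjusted p = 0.0679), without the second c-Kit- library (0.53) or without the second c-Kit+ library (0.90). *Col27a1* had a log2 fold change of -0.73 and was not called.

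Collagen VI forms beaded filaments around cells, and the 2 of its 6 genes that could be tested were both lower in c-Kit+ cells. *Col6a1* was at 12.6 and 10.1 TPM among c-Kit- cells against 0.76 and 1.12 TPM among c-Kit+ cells, with 88 against 4 counts over the group, a ratio of 21.0 (95% interval 7.93 to 78.9; adjusted p = 0.000232). *Col6a2* was at 8.34 and 10.06 TPM among c-Kit- cells against 0.26 and 0.98 TPM among c-Kit+ cells (log2 fold change -3.68, SE 0.56, adjusted p = 0.000743). Their genes lie beside each other on chromosome 10. *Col12a1*, which decorates fibrils, had 60 against 1 counts (ratio 57.4, 95% interval 9.91 to 2300; adjusted p = 0.000816). Without any 1 of the 4 libraries, all 12 lower genes were still called in the same direction; of the 4 higher genes, *Col4a6* alone was.

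The trophoblast list (11 genes) summed to 7173 and 6532 TPM among c-Kit- cells against 1719 and 1465 TPM among c-Kit+ cells. Of its 10 tested genes, 7 were lower and 2 higher in c-Kit+ cells. The fibroblast and mesenchyme list (8 genes) summed to 90.8 and 71.3 TPM among c-Kit- cells against 32.8 and 17.3 TPM among c-Kit+ cells. Both genes of this list that were tested were lower. Within it, *Thy1* (43.4 and 40.99 against 21.6 and 8.32 TPM) and *Pdgfrb* (23.99 and 23.5 against 4.6 and 4.45 TPM) were higher in both c-Kit- libraries, and *Dcn*, *Lum* and *Postn* were at most 0.88 TPM in every sorted library. The endoderm list (8 genes) summed to 24.8 and 37.5 TPM among c-Kit- cells against 23.9 and 11.1 TPM among c-Kit+ cells. Of its 3 tested genes, 2 were lower and 1 higher. The part of these cell types in the collagen and laminin values was not tested. In bulk RNA, fewer cells of a type and less RNA per cell cannot be told apart.

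BV+SC+ cells were set against EpiSCs to ask how the germ cell-like population of Day 6 differed from them. The labels do not say whether these EpiSCs are of the reporter line that gave the BV+SC+ cells. Line, sorting, medium and induction therefore cannot be told apart in this comparison. Here the abundant laminin alpha chain *Lama5* was lower (log2 fold change -2.67), as was *Col4a1* (-2.37), while *Lama1*, *Lama3* and *Lama4* and the fibril-associated *Col9a1* and *Col9a2* were higher. Of the 55 genes, 22 were tested and 17 were called (9 higher and 8 lower in BV+SC+ cells), where 34.0% of the 11792 genes tested were called (16.8% higher and 17.2% lower). Among basement membrane genes 4 of 12 tested were higher and 4 lower, among fibrillar genes 2 of 6 were higher and 3 lower, and among other collagens 3 of 4 were higher and 1 lower. The median log2 fold change was -0.59 over the 22 genes and 0.05 over all genes tested.

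*Lama5* was at 206.3, 199.9 and 211.4 TPM in EpiSCs and at 50.7 and 21.05 TPM in BV+SC+ cells, a log2 fold change of -2.67 (SE 0.29, adjusted p = 0.000196). *Lama1* was at 1.42, 1.61 and 1.97 TPM in EpiSCs and at 18.2 and 3.34 TPM in BV+SC+ cells, a log2 fold change of 2.77 (SE 0.64, adjusted p = 0.00694), which was 1.12 without the first BV+SC+ library and 3.53 without the second. *Lama3*, the alpha chain of epithelial anchoring laminin, was at 0.76, 1.13 and 0.69 TPM in EpiSCs and at 2.38 and 11.6 TPM in BV+SC+ cells, a log2 fold change of 3.11 (SE 0.70, adjusted p = 0.00621), which was 3.84 without the first BV+SC+ library and 1.53 without the second. The BV+SC+ libraries therefore differed in which alpha chain rose most, *Lama1* in the first and *Lama3* in the second, though both genes were above all EpiSC libraries in each. *Lama4* had 76 and 62 counts in BV+SC+ cells and 2, 2 and 0 in EpiSCs, a ratio of 8.88 (95% interval 3.39 to 33.0; adjusted p = 0.00594), although in TPM the second EpiSC library (2.27) stood between the BV+SC+ libraries (2.70 and 1.00). With offsets for effective length its call was lost (adjusted p = 0.0801).

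As shares of alpha chain TPM, *Lama5* held 97.6% to 98.9% in EpiSCs, 93.6% and 90.2% at Day 3 without and with SGC0946, and 68.5% and 56.8% in BV+SC+ cells. *Lama1* held 24.6% in the first BV+SC+ library and 9.01% in the second, and *Lama3* held 3.21% and 31.2%. The summed alpha chain level was 204.9 to 214.0 TPM in EpiSCs and 74.1 and 37.1 TPM in BV+SC+ cells.

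**Figure D3:**
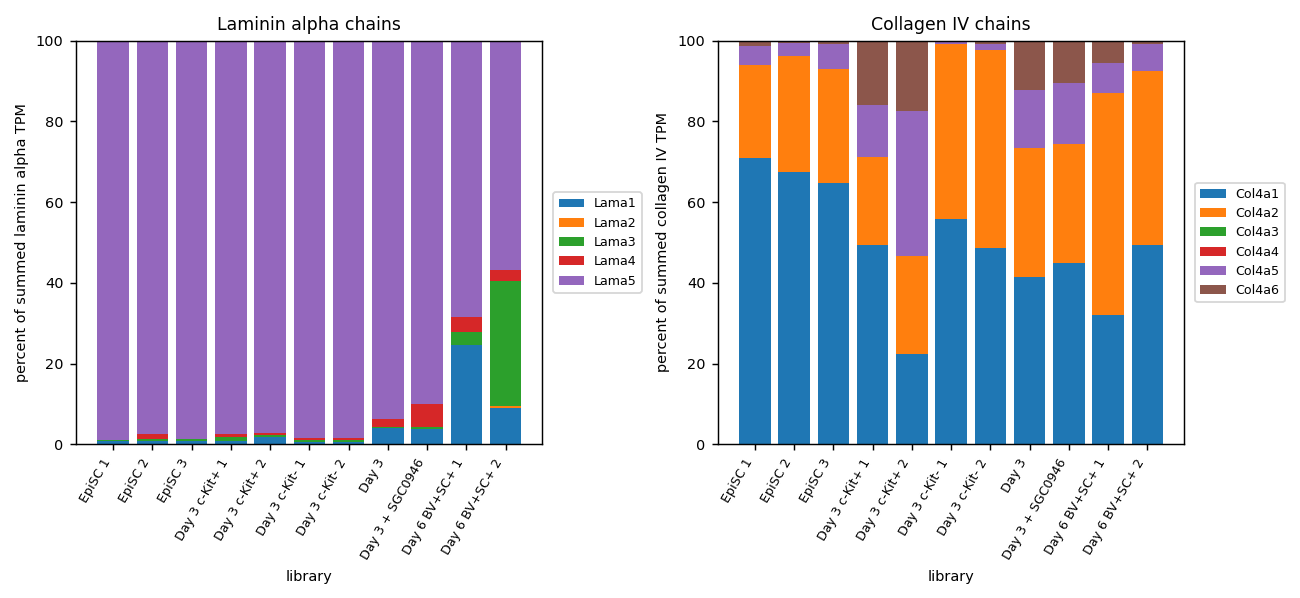
Share of each chain in the summed TPM of the laminin alpha chains (left) and of the collagen IV chains (right), in percent, for each of the 11 libraries. *Lama5* fills 97.3% or more of the alpha bars of EpiSCs and sorted cells but 68.5% and 56.8% of those of BV+SC+ cells, and *Col4a5* with *Col4a6* is largest in the c-Kit+ cells and at Day 3.

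*Lamb1* was at 79.2, 81.7 and 73.4 TPM in EpiSCs and at 43.99 and 37.1 TPM in BV+SC+ cells, a log2 fold change of -1.01 (SE 0.13, adjusted p = 0.000402). *Lamc1* was at 149.0, 195.8 and 155.6 TPM in EpiSCs and at 86.96 and 79.3 TPM in BV+SC+ cells, a log2 fold change of -0.95 (SE 0.11, adjusted p = 0.000337). Both were lower in each BV+SC+ library than in any EpiSC library, where 73.0% of all genes tested did not overlap, and lie on either side of the 2-fold limit. The call of *Lamb1* was lost without the second BV+SC+ library (-0.89) or the second EpiSC library (-0.94), and with offsets for effective length (-0.88). *Lamb2* was at 16.9, 16.8 and 18.0 TPM in EpiSCs and at 29.7 and 14.0 TPM in BV+SC+ cells, so the groups overlapped. Its log2 fold change of -0.21 (SE 0.32, adjusted p = 0.606) did not pass, and its sign turned with an offset for GC content (0.26) or effective length (0.41).

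*Col4a1* was at 19.7, 20.5 and 16.01 TPM in EpiSCs and at 4.81 and 2.12 TPM in BV+SC+ cells, a log2 fold change of -2.37 (SE 0.33, adjusted p = 0.000669). *Col4a2* was at 6.38, 8.73 and 7.04 TPM in EpiSCs and at 8.23 and 1.84 TPM in BV+SC+ cells, and its log2 fold change of -0.69 (SE 0.54, adjusted p = 0.305) did not pass. Here the groups overlapped for *Col4a2*, as the first BV+SC+ library was level with EpiSCs. Without that library *Col4a2* was called lower (log2 fold change -2.14), and without the second its log2 fold change was 0.022. *Col4a5* did not pass (log2 fold change -0.48, SE 0.60), and *Col4a6* was not tested. *Col7a1* was at 9.92, 5.21 and 21.5 TPM in EpiSCs and at 0.54 and 0.36 TPM in BV+SC+ cells, a log2 fold change of -3.25 (SE 0.48, adjusted p = 0.000833). *Col18a1* moved the other way, at 99.9, 105.8 and 110.2 TPM in EpiSCs and at 168.6 and 234.1 TPM in BV+SC+ cells. Its log2 fold change was 1.02 (SE 0.15, adjusted p = 0.000828), and it was the chain of highest level in BV+SC+ cells. Its call held in only 3 of the 5 fits with a library left out. Without the second BV+SC+ library the change was 0.74, under 2-fold.

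**Figure D4:**
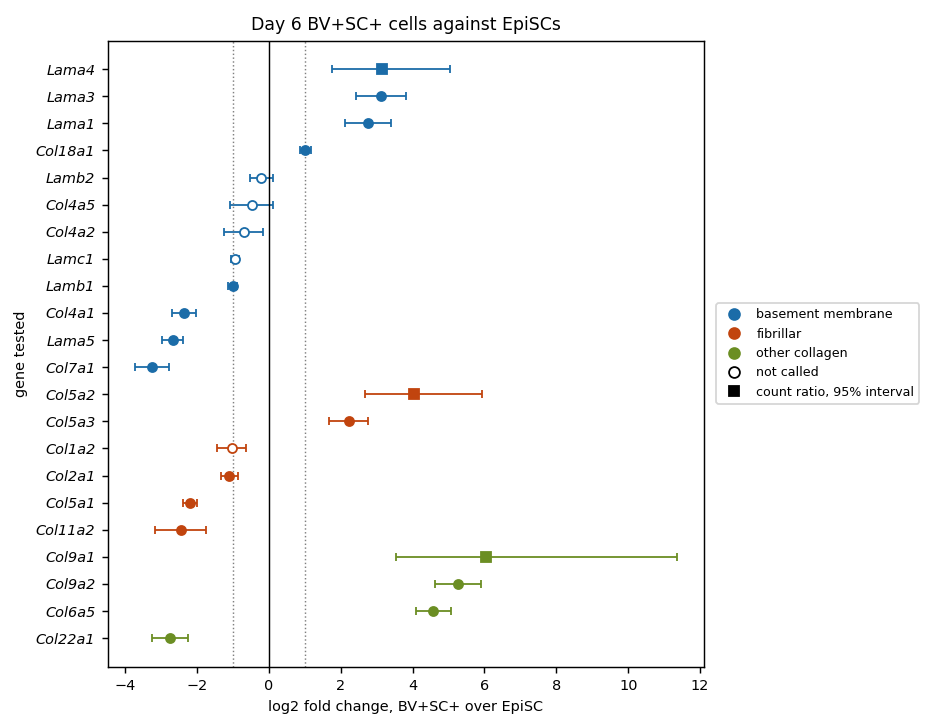
Log2 fold change of the 22 tested genes, BV+SC+ cells (2 libraries) over EpiSCs (3 libraries), with bars of 1 SE for circles. Squares are genes with at most 3 counts in each EpiSC library, drawn as the ratio of summed counts with its 95% counting interval, open circles were not called and dotted lines mark a 2-fold change. *Lama3* (3.11) and *Lama1* (2.77) lie to the right, and *Lama5* (-2.67), *Col4a1* (-2.37) and *Col7a1* (-3.25) to the left.

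The fibrillar genes were split. *Col5a1* was at 12.2, 13.4 and 11.3 TPM in EpiSCs and at 2.86 and 2.24 TPM in BV+SC+ cells, a log2 fold change of -2.19 (SE 0.19, adjusted p = 7.15e-05). *Col2a1* was at 13.4, 13.9 and 18.03 TPM in EpiSCs and at 10.4 and 5.21 TPM in BV+SC+ cells. Its log2 fold change was -1.10 (SE 0.24, adjusted p = 0.00523). It was not called with an offset for GC content (log2 fold change -0.39) or effective length (-0.88). Nor was it called without the second BV+SC+ library (-0.82) or the third EpiSC library (-0.998). *Col11a2*, also a cartilage collagen, had a log2 fold change of -2.45 (SE 0.70, adjusted p = 0.0186). It lost its call with the offset for GC content (adjusted p = 0.105) and without the first or the second EpiSC library (-2.13 and -2.47, with an adjusted p of up to 0.082). Its log2 fold change was -3.88 without the first BV+SC+ library and -1.72 without the second. The partners of *Col5a1* went up: *Col5a2* had 190 and 67 counts against 2, 1 and 1 (ratio 16.5, 95% interval 6.38 to 61.1; adjusted p = 0.00275), and *Col5a3* had a log2 fold change of 2.23 (SE 0.54, adjusted p = 0.00902). Type I and III collagens were at low levels throughout this comparison. *Col1a1* was at 0.40, 3.88 and 0.26 TPM in EpiSCs and at 0.95 and 1.80 TPM in BV+SC+ cells and was not tested. *Col1a2* was at 3.59, 4.76 and 3.14 TPM in EpiSCs and at 1.5 and 1.91 TPM in BV+SC+ cells (log2 fold change -1.03, SE 0.40, adjusted p = 0.0557). *Col3a1* was at 0.22, 1.48 and 0.41 TPM in EpiSCs and at 1.18 and 0.68 TPM in BV+SC+ cells and was not tested.

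Among the other collagens, *Col9a2* was at 1.12, 0 and 4.18 TPM in EpiSCs and at 12.1 and 17.03 TPM in BV+SC+ cells, a log2 fold change of 5.26 (SE 0.65, adjusted p = 0.000354). Its partner *Col9a1* had 94 and 161 counts in BV+SC+ cells and 1, 0 and 0 in EpiSCs, a ratio of 65.6 (95% interval 11.7 to 2600; adjusted p = 0.000574). The other partner, *Col9a3*, was at 1.28 and 0.22 TPM in BV+SC+ cells and at 3.81, 0.46 and 5.07 TPM in EpiSCs and was not tested. *Col6a5*, a late member of the collagen VI family, was at 0.25, 0.08 and 2.71 TPM in EpiSCs and at 13.4 and 9.69 TPM in BV+SC+ cells, a log2 fold change of 4.58 (SE 0.48, adjusted p = 0.000168). It stayed under 1 TPM in every other library. *Col22a1*, a collagen of tissue junctions, had a log2 fold change of -2.75 (SE 0.49, adjusted p = 0.00220). *Col13a1*, a transmembrane collagen, had no count in any EpiSC library and 46 and 29 counts in the deeper BV+SC+ libraries (1.90 and 0.97 TPM) and was not tested.

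Beside these values, the fibroblast and mesenchyme list summed to 24.3 to 33.2 TPM in EpiSCs, most of it *Thy1* (18.8 to 28.3 TPM). It summed to 2.04 and 1.78 TPM in BV+SC+ cells, where all 8 genes were under 1 TPM and the only gene tested was lower. The trophoblast list summed to 38.8 to 56.1 TPM in EpiSCs and to 218.5 and 74.7 TPM in BV+SC+ cells, with 4 of 5 tested genes higher. The endothelial list summed to at most 1.25 TPM in EpiSCs and to 115.7 and 150.9 TPM in BV+SC+ cells, nearly all of it *Pecam1*, which germ cells also express. The endoderm list stayed at or under 5.59 TPM in both groups. Their part in the collagen and laminin values was not tested. BV+SC+ libraries were also deeper than those of EpiSCs (14778809 and 18099059 against at most 3070115 expected counts), and replicate and label cannot be told apart within them.

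The last pair of libraries asked what SGC0946 does at Day 3. With 1 library per condition there was no test, and a gene was counted as changed past a 2-fold ratio of normalised CPM (counts scaled to library size). The chains of high level differed little. Of the 35 genes with at least 10 counts in a library, 3 were past 2-fold higher with SGC0946 and none lower (with at least 10 counts in both libraries, none of 32 was past 2-fold in either direction), where 6.93% of 12531 genes were past 2-fold (5.21% higher and 1.72% lower). The 3 were low, and among them *Lama3* had 13 against 1 counts (ratio 12.2, 95% interval 1.83 to 519, counting error only) and *Col8a2* had 11 against 2 counts (ratio 5.16, 1.13 to 47.9). None of the 10 fibrillar genes measured was past 2-fold in CPM. The median log2 ratio was -0.07 over the 35 genes and 0.00 over all.

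Without and with SGC0946, *Col4a1* was at 62.04 and 54.9 TPM, with a log2 ratio of CPM of -0.18 (95% interval -0.31 to -0.05). *Col4a2* was at 47.8 and 35.8 TPM, with a log2 ratio of -0.42 (-0.58 to -0.27). *Col4a5* and *Col4a6* had log2 ratios of -0.39 (-0.65 to -0.14) and -0.54 (-0.80 to -0.28). All 4 collagen IV genes measured were thus a little lower with the inhibitor, by amounts past counting error but without a replicate to set them against. Passing counting error was not particular to them. Of the other genes measured, *Lamb1*, *Lamb2*, *Lamc1*, *Col1a1*, *Col2a1*, *Col11a1* and *Col23a1* were lower past counting error. *Col1a2*, *Col8a2*, *Col18a1*, *Col24a1*, *Col27a1*, *Lama3* and *Lama4* were higher past it. The share of all genes that passed counting error was not counted. *Lama5* was at 197.5 and 205.8 TPM (log2 ratio 0.04, -0.03 to 0.11), and *Lama1* at 8.66 and 8.64 TPM (-0.01, -0.29 to 0.28). *Lamb1* was at 140.7 and 116.5 TPM (-0.21, -0.30 to -0.11), *Lamc1* at 192.5 and 143.6 TPM (-0.34, -0.42 to -0.25), and *Col18a1* at 168.8 and 187.7 TPM (0.15, 0.06 to 0.23). Among fibrillar genes, *Col1a1* was at 223.8 and 210.1 TPM (-0.07, -0.15 to -0.00), *Col3a1* at 8.36 and 6.30 TPM (0.07, -0.39 to 0.53), and *Col1a2* at 19.97 and 32.1 TPM (0.65, 0.41 to 0.89). In CPM the largest fall was that of *Col11a1*, from 24.3 to 12.9 CPM (-0.91, -1.39 to -0.46). The unit changed which genes passed 2-fold. As log2 ratios of TPM + 1, 4 of 34 genes did, of which *Col24a1* (3.20), *Lama4* (1.32) and *Col6a3* (1.27) were higher and *Col9a3* (-1.08) lower. The share of all genes past 2-fold in this unit is not given here, so the 4 cannot be set against it. *Col24a1* went from 20 to 38 counts (log2 ratio of CPM 0.82, 0.02 to 1.69) but from 1.15 to 18.8 TPM, and *Lama4* and *Col9a3* had log2 ratios of CPM of 0.74 (0.22 to 1.27) and -0.45 (-1.82 to 0.83). RSEM scales TPM by an effective length that it estimates in each library.

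**Figure D5:**
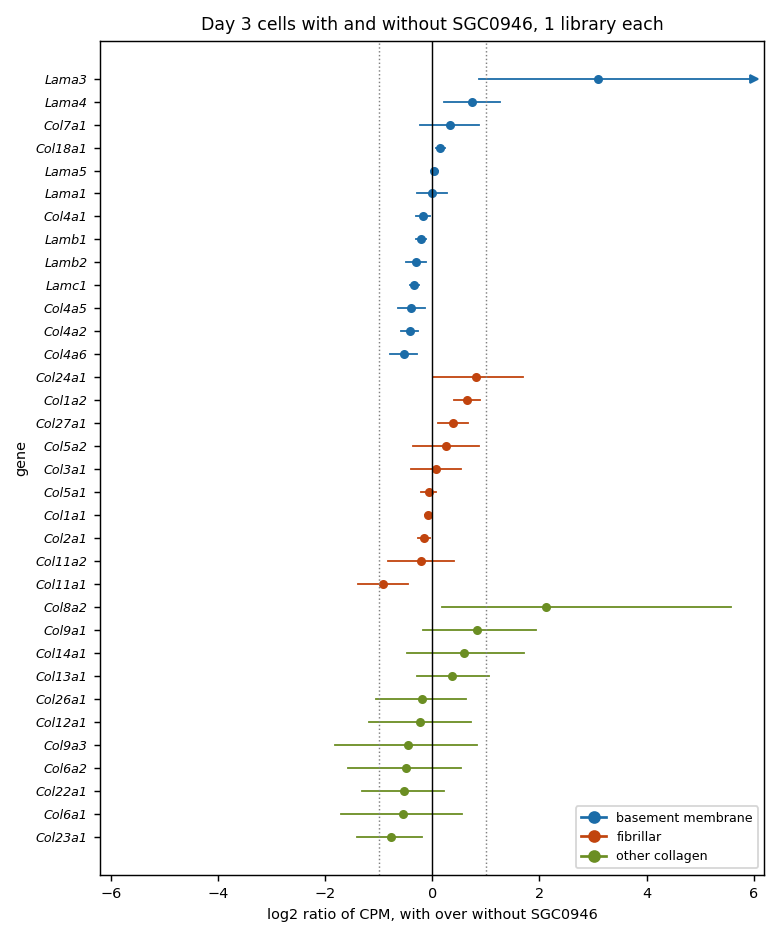
Log2 ratio of CPM with over without SGC0946 at Day 3 (1 library each) for 34 of the 35 genes with at least 10 counts in a library, with lines for the 95% counting interval and an arrow where it leaves the axis. Dotted lines mark a 2-fold ratio. Of the genes drawn, *Lama3* and *Col8a2* alone lie beyond them, and *Col1a1* (-0.07) and *Lama5* (0.04) lie near 0.

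Unlike EpiSCs, both Day 3 libraries of this pair had type I collagen RNA at high level. *Col1a1* was at 223.8 and 210.1 TPM there against 0.26 to 3.88 TPM in EpiSCs from the same gene table, and *Col2a1* was at 104.4 and 95.5 TPM against 13.4 to 18.03 TPM. *Col1a1* was the chain of highest level in both. *Col1a1* held 52.9% and 48.8% of fibrillar TPM in these libraries and *Col1a2* 4.72% and 7.47%, while the shares were 25.9% and 21.0% against 12.4% and 21.4% in c-Kit- cells. The sorted cells come from files with another gene list and from another library kit. Kit and cells therefore cannot be told apart in this difference of shares. The fibroblast and mesenchyme list summed to 95.9 TPM without and 126.2 TPM with SGC0946, against 24.3 to 33.2 TPM in EpiSCs, with *Twist1* at 25.3 and 40.1, *Twist2* at 27.8 and 26.9, *Thy1* at 24.3 and 36.5 and *Pdgfrb* at 14.05 and 12.3 TPM, while *Postn*, *Lum* and *Dcn* were at 0.64 to 2.02 TPM. The trophoblast list summed to 3090 TPM without and 2485 TPM with SGC0946, against 38.8 to 56.1 TPM in EpiSCs. For the endoderm list the sums were 37.1 and 32.1 TPM against 2.34 to 3.35 TPM. The endothelial list reached 25.5 and 28.4 TPM against at most 1.25 TPM. A list of 5 pluripotent genes summed to 159.0 and 874.7 TPM against 4279 to 4478 TPM. The part of these lists in the collagen values was not tested, and with 1 library per condition no test of Day 3 against EpiSCs was made.

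Genes that build, link, bind or cut the matrix were taken as 5 further lists. Their counts stand beside the shares over all genes tested in the c-Kit sort, 9.98% called higher and 12.9% lower. In the c-Kit sort, the other basement membrane genes (13 tested of 14) were split, with 4 higher and 5 lower in c-Kit+ cells. The nidogens, which bridge laminin and collagen IV, went opposite ways: *Nid2* was at 56.3 and 46.4 CPM among c-Kit- cells against 462.4 and 541.7 CPM among c-Kit+ cells (log2 fold change 3.29, SE 0.14, adjusted p = 7.75e-07), while *Nid1* was at 310.3 and 279.3 CPM among c-Kit- cells against 36.9 and 32.02 CPM among c-Kit+ cells (-3.10, SE 0.14, adjusted p = 9.29e-07). *Frem2*, of the Fraser complex that anchors epithelia, was higher (2.39, SE 0.11), as were *Fras1* and *Frem1* of the same complex, and *Tinagl1*, a matrix glycoprotein, was lower (-2.39, SE 0.11). Of the collagen hydroxylases and chaperones, 5 of 14 tested were lower and none higher, including *P3h4*, a partner in lysyl hydroxylation (-2.43, SE 0.31). Of the genes for propeptide processing and cross-linking, 3 of 5 were lower, with *Bmp1*, the procollagen C-proteinase, at -2.58 (SE 0.12), and 1 was higher. Of the receptors, 5 of 8 were lower and none higher (*Itga3*, *Itga6*, *Itga7*, *Ddr1* and *Bcam*). Of the metalloproteinases and their inhibitors, 5 of 6 were lower and none higher, with *Mmp15* at -3.79 (SE 0.18) and the gelatinase *Mmp9* at -2.39 (SE 0.21).

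In BV+SC+ cells against EpiSCs, 16.8% of all genes tested were called higher and 17.2% lower. Of the receptors, 4 of the 7 tested were lower and none was called higher, *Dag1*, which encodes dystroglycan, being at 0.37 (adjusted p = 0.0213) and *Itga1* at 0.78 (adjusted p = 0.149). *Itga3* and *Itga6* encode laminin-binding integrins: *Itga3* was at 63.9, 73.5 and 58.6 TPM in EpiSCs and at 4.87 and 5.76 TPM in BV+SC+ cells (log2 fold change -3.55, SE 0.17, adjusted p = 7.41e-06), and *Itga6* was at 182.1, 192.2 and 175.5 TPM against 38.7 and 55.2 TPM (-1.94, SE 0.16). The collagen receptor *Ddr1* was at 88.01, 93.03 and 92.7 TPM in EpiSCs and at 3.37 and 5.78 TPM in BV+SC+ cells (-4.07, SE 0.26), and *Bcam*, a receptor of laminins that hold the *Lama5* chain, had a log2 fold change of -1.71 (SE 0.18). Of the other basement membrane genes (11 tested), 6 were higher and 2 lower. Both nidogens were among the higher, with *Nid2* at 94.8 to 97.3 TPM in EpiSCs and at 227.2 and 251.8 TPM in BV+SC+ cells (log2 fold change 1.40, SE 0.10) and *Nid1* at a log2 fold change of 1.38 (SE 0.18), as were *Frem2* (3.48), *Npnt* (2.74), *Tinagl1* (2.67) and *Smoc1* (1.04). The lower were *Pxdn*, which cross-links collagen IV, at -4.11 (SE 0.46), and *Hspg2*, which encodes perlecan, at -1.72 (SE 0.10). Of the hydroxylases and chaperones, 2 of 14 were lower and none higher, no more than the 17.2% of all genes tested that were lower. Of the processing genes, 1 of 7 was higher and 3 lower, and of the metalloproteinases and inhibitors 1 of 6 was higher, the inhibitor *Timp1* (3.35, SE 0.59), and 4 lower, with *Mmp14*, a membrane-bound collagenase, at -2.12 (SE 0.32). With SGC0946, 4 of the 54 genes of these lists that had enough counts were past 2-fold, all higher, where 6.93% of all genes were. They were *Adamts14*, a procollagen N-proteinase, at 2.12 (95% interval 1.28 to 3.15), *Loxl3* at 1.27 (0.26 to 2.46), *Timp1* at 1.20 (0.22 to 2.33) and *Itga1* at 1.17 (-0.22 to 2.88), an interval that holds 0. These 4 were named after their values were seen.

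Over the 7 libraries of the shared gene table, the genes whose log2(TPM + 1) was most like that of *Col4a1* were *Mex3a* (Pearson r = 0.998), *Lrp4*, *Smpd1*, *Zmiz1* and *Plch1* (r = 0.997 each), out of 10637 genes with a mean of at least 5 TPM. The libraries of a group share their cells, so these values are descriptions over 7 points in 4 conditions. Of the 55 genes, 14 were tested in both comparisons and 26 in neither. The share of a transcript that another gene repeats (at least 98% identity over at least 75 bases) was 2.59% for *Col5a1*, 7.68% for *Col9a3* and 2.53% for *Col3a1* and 0.00% for the other chains whose calls are given, and the exons of *Col4a1* and *Col4a2* overlap over 0.295% and 0.332% of their bases, where reads of the pair cannot be told apart without strand.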

How the data were processed

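RNA-seq libraries of 11 samples were analysed, and no other assay of the series was used here. RSEM (version 1.3.1 per the submitters' processing notes), run by the authors after Bowtie2 alignment to transcripts, gave the deposited expected counts, which are not normalised between libraries. The TPM in the same files were computed by RSEM and deposited by the authors. The effective length that RSEM gave each gene was used as deposited, and FPKM were not used. Replicates were not pooled. The labels name a total RNA kit without ribosomal RNA for the EpiSC, BV+SC+ and SGC0946 libraries, where the methods name an mRNA kit. Symbols and coordinates came from GENCODE M21 on GRCm38, with 99.56% and 98.25% of identifiers matched in the 2 sets of files, and promoters from RefSeq.

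Expected counts were rounded and tested by the quasi-likelihood test of edgeR 4.0.16 (R 4.3.3) after filterByExpr and TMM, with glmQLFit and glmQLFTest fitted over all genes within each comparison, and called at a Benjamini-Hochberg adjusted p under 0.05 and a fold over 2. The SE was taken from the log2 fold change and the F statistic. For SGC0946, log2 ratios of TMM-scaled CPM (prior count 0.5) have exact Clopper-Pearson intervals, as have ratios of counts for genes with at most 3 counts per library in a group. Intervals cover counting error only. The fits were tested on simulated data. No pair of replicates agreed within sampling noise. The 55 genes, their classes and the further lists were chosen with earlier results of these data known. Values of 1 of the 55 genes are not reported here, and counts over all genes include it.

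Values in each library are given for called genes with a mean of at least 5 TPM in 1 group and for Col4a1, Col4a2, Lama1, Lama5, Lamb1, Lamc1, Col18a1, Col1a1, Col1a2 and Col3a1, and further matrix genes are named when called with at least 20 TPM, at most 8 per comparison. Others were named after their values were seen. The labels number the replicates without saying that a number pairs libraries, so the fits have no block. Alternatives were DESeq2 1.42.0, RLE factors, other filters, thresholds and offsets, a replicate block, protein-coding genes alone, and each library left out. Transcripts were compared with BLAST+ 2.17.0.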

Additional observations from a re-analysis of the deposited data

How the results depend on the processing

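The counts of called collagens and laminins were 16 in the c-Kit sort and 17 in BV+SC+ cells against EpiSCs, and moved by over 1.5 times only when at least 10 counts were required in every library, to 9 and 7, since fewer genes were tested (15 and 12). With SGC0946, the count of 3 became 0 with at least 10 counts in both libraries and 14 without a filter on low counts. Shares of all genes called under this and the other alternatives are not given here. The counts therefore show only how the calls of these genes moved. Leaving out each library in turn gave 14 to 17 calls in the c-Kit sort (1 to 4 higher and 12 to 13 lower, 1 higher without the second c-Kit+ library) and 18 to 21 in BV+SC+ cells, with a lone library assumed to vary like the other group. For the further matrix genes the counts were 28 (27 to 31 with a library left out), 23 (23 to 29) and 4. The summed level of the 55 genes in BV+SC+ cells over EpiSCs was a log2 ratio of -0.50 in TPM and -0.42 as CPM per kilobase with TMM factors. The replicate block left the counts at 16 and 17 (28 and 23 for the further genes), and with a GC offset it gave 16 and 15. Same-numbered libraries correlated by 0.114 in the c-Kit sort and by -0.035 and 0.004 in the other comparison. With 2 pairs this does not settle whether the numbers mark shared sort days. In BV+SC+ cells, the GC offset shifted the median log2 fold change of all genes from 0.05 to -0.05. There Lamb2 turned to 0.26 with the GC offset, 0.41 with length offsets, 0.14 with the replicate block and GC offset, and, with a library left out, lay between -0.89 and 0.26. The range was -2.14 to 0.022 for Col4a2 and -1.60 to 0.16 for Col4a5, each highest without the second BV+SC+ library. DESeq2 gave 14 and 17 calls. Chains with few counts were left untested by the filter on low counts. Without it 47 and 53 of the 55 genes were tested and 17 and 23 called. Col3a1 passed the filter in 3 of the fits of the c-Kit sort with a library left out and was called lower in 2 of them (log2 fold changes -6.74 to -3.59).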
